A study of Homo sapiens with 4 samples.

Results

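The integrin and laminin genes comprised 38 of the 19103 autosomal protein-coding genes of the GENCODE annotation. They were chosen by symbol alone, as every integrin alpha or beta subunit gene and every laminin alpha, beta or gamma chain gene, a rule that uses no measured value. An open region was assigned to them when the summit of a peak lay within 10 kb of any annotated transcription start site (TSS) of a member. The members had 125 such peaks in the WT list, 135 in WT-IFN-γ, 146 in FLI1-KO and 131 in FLI1-KO-IFN-γ. Merged over the lists, these made 175 regions, of 37940 within 10 kb of any autosomal protein-coding gene. ITGA4 and ITGA8 had no peak in the window in any list, and the other 36 members had at least 1.

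ATAC-seq, an assay whose transposase inserts adapters into accessible DNA, was run on HK1, an established human nasopharyngeal carcinoma cell line. The 4 libraries were untreated cells without the edit (WT), the same cells treated with IFN-γ (WT-IFN-γ), cells labelled sgFLI1 in which FLI1 was knocked out (FLI1-KO), and those cells treated with IFN-γ (FLI1-KO-IFN-γ). A series of 4 values follows this order of libraries. Each group held 1 library, so no difference between groups has a replicate check, and genotype, the preparation of the library and the cell population that was edited cannot be told apart. Whether the edited cells were 1 clone is not given in the sources used here. Background density ran from 6.86 to 8.84 tags per kb, with both FLI1-KO libraries below both WT libraries, and the lists held 59629 to 67470 peaks. FLI1, the targeted gene, had 2 peaks within 1 kb of a TSS in WT, 1 in WT-IFN-γ and 0 in each FLI1-KO list, which does not show whether the protein was lost.

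Integrins are receptors made of 1 alpha and 1 beta chain that fasten cells to the extracellular matrix or to other cells and signal through talin, kindlin and focal adhesion kinase. Laminins are trimers of an alpha, a beta and a gamma chain that polymerise into the sheet of the basement membrane. Squamous epithelia rest on laminin-332, whose alpha chain is made by LAMA3 and beta chain by LAMB3, and the α6β4 integrin of hemidesmosomes, made by ITGA6 and ITGB4, binds it.

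Most integrin genes of epithelia had a start-site peak in every library, whereas most leukocyte integrin genes did not. A peak summit lay within 1 kb of a TSS in 27 of the 38 members in WT, 27 in WT-IFN-γ, 28 in FLI1-KO and 27 in FLI1-KO-IFN-γ (71.1%, 71.1%, 73.7% and 71.1%). Over all autosomal protein-coding genes the shares were 67.2%, 68.2%, 67.5% and 66.8%, so the members as a whole were close to the background. Counting the canonical TSS alone, the members with a peak were 19, 18, 20 and 19.

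The roles divided the members more than the libraries did. Of the 9 integrin genes of epithelia and basement membrane binding, 8 had a start-site peak in each list, all of them at the canonical TSS. LAMA3 and LAMB3 of laminin-332 and all 4 laminins of most basement membranes (LAMA5, LAMB1, LAMB2 and LAMC1) had one in each list, that of LAMA5 at an internal start site. Of the 8 leukocyte integrin genes, 3 had one in WT, 4 in WT-IFN-γ, 3 in FLI1-KO and 3 in FLI1-KO-IFN-γ, and only ITGAX, the alpha chain of a complement receptor, had one at its canonical TSS. The 7 integrin genes of fibroblasts, muscle and other tissues had 5, 5, 5 and 4, of which 3, 3, 4 and 3 at the canonical TSS. Of these, the ITGA1 peak lay 174 bp from the start of PELO and the ITGA7 peak 49 bp from that of BLOC1S1. Neither can be told apart from the promoter of that neighbour. The 5 other laminin genes had 3, 2, 4 and 4, and the platelet pair ITGA2B and ITGB3 had 1 in each list.

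**Figure D1:**
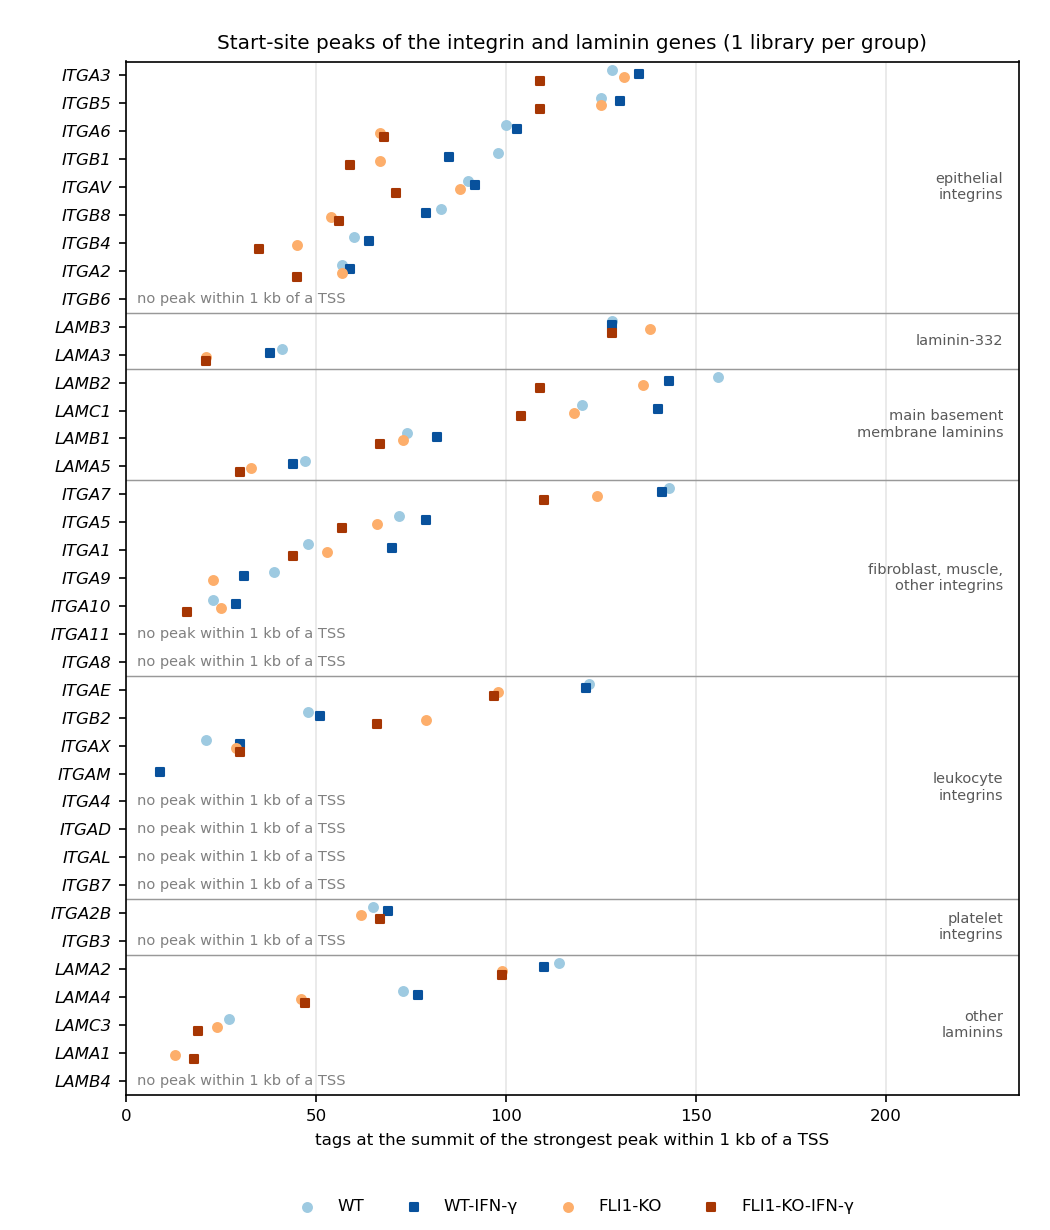
Tags at the summit of the strongest peak within 1 kb of any annotated TSS (x axis) for each of 37 genes (y axis, grouped by role), with 1 point per library. The epithelial integrin genes other than ITGB6 and both laminin-332 genes shown have points for every library, while ITGA4, ITGAD, ITGAL and ITGB7 have none.

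The exception among the epithelial integrins was ITGB6, the beta chain of the αvβ6 receptor that activates TGF-β. Its nearest strong peak lay 5414 bp upstream of the canonical TSS, with 78, 94, 82 and 72 tags. A tag here is 1 read, extended by the peak caller, that covers the summit. ITGB6 therefore had open chromatin upstream in every library and none listed at its start sites.

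Among the leukocyte genes, the strongest start-site peak was that of ITGAE, the alpha chain that binds E-cadherin, with 122, 121, 98 and 97 tags. It lay at an internal ITGAE start site and 47 bp from the start of HASPIN, a kinase gene, so its tags cannot be told apart from those of the HASPIN promoter. ITGAX had 21, 30, 29 and 30 tags at its start. ITGA4, ITGAD, ITGAL and ITGB7 had no start-site peak in any list, and ITGAM had a single peak of 9 tags at an internal start site in WT-IFN-γ. The defining leukocyte genes PTPRC, CD3E and SPI1 had no start-site peak in any list either.

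Cell type markers were checked in the same way against the label of a carcinoma line. Of 7 epithelial markers, 3 had a start-site peak in WT and 4 in each other list, while KRT5, KRT19 and TP63 had none in any list. Of 5 leukocyte markers 2, 2, 2 and 1 had one, of 2 endothelial markers 1, 0, 1 and 2, and both fibroblast markers had one in every list. A peak near a start site is not expression, and the part of other cell types in these lists was not tested.

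LAMA3, LAMB3 and the genes of the α6β4 receptor were open at their starts in every library, at levels that ranged widely. LAMB3, the beta chain, had the strongest peak, with 128, 128, 138 and 128 tags, centred 637 bp upstream of the canonical TSS. At this LAMB3 peak the libraries differed by less than the 1.5-fold ratio used here to call a change, set after centring on the median ratio of all peaks. ITGA6 had 100, 103, 67 and 68 tags and ITGB4 had 60, 64, 45 and 35, so both receptor chains were lower in the FLI1-KO libraries before scaling. After centring, the log2 ratio of FLI1-KO to WT was −0.41 (95% interval −0.88 to 0.05) at ITGA6 and −0.25 (−0.84 to 0.33) at ITGB4, and neither reached 1.5-fold. All intervals cover counting error only.

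LAMA3, the alpha chain, had peaks at its canonical start site and near an internal one. At the canonical TSS it had 41, 38, 21 and 21 tags, with a log2 ratio of −0.80 (−1.63 to 0.00) in untreated cells. The median ratio on chromosome 18 was −0.35 in that comparison, and centred on it the difference was −0.44, within 1.5-fold. Near the internal start site, 182192 bp downstream, the tags were 40, 38, 40 and 33, with log2 ratios between genotypes of 0.17 (−0.50 to 0.84) untreated and 0.22 (−0.50 to 0.93) with IFN-γ.

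The promoter at that internal LAMA3 start and the promoter of the internal LAMB3 start are shown because a peak covered each in all 4 lists and both hold a site for AP-1, the factor family of FOS and JUN. At LAMB3 the strongest summit lay 20 bp from the internal start. At LAMA3 it lay 1375 bp away, and no AP-1 letters stood within 100 bp of a summit of that region. They are RefSeq sequences of build GRCh38.p14, and promoters were found in that set for 26 of the 38 members. LAMA3 is on the plus strand at chr18:23872770-23873069 and LAMB3 on the minus strand at chr1:209651325-209651624, each printed 5′ to 3′ along the gene. Capitals mark every match on either strand to TGANTCA (AP-1) and, near the start of the LAMB3 window, to GAAANNGAA (the IRF motif of interferon regulatory factors).
LAMA3: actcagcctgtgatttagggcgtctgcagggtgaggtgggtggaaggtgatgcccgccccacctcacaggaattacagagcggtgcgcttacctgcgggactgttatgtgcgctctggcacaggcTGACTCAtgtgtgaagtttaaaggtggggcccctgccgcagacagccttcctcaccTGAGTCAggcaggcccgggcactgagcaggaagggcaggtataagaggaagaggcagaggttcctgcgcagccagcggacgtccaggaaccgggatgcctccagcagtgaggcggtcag
LAMB3: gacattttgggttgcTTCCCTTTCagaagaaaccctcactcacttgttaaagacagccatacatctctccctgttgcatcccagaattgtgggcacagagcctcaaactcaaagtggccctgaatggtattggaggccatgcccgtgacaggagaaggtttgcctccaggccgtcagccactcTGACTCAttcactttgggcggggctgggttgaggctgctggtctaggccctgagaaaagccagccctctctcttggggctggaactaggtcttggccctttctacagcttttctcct

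The AP-1 letters stood in the promoters of 3 matched members, ITGA5, LAMA3 and LAMB3, and in 7.71% of all 35116 promoters in the set. The IRF letters stood in those of ITGA10, ITGB5 and LAMB3, against 8.11% of all. GAS letters (TTCNNNGAA, the interferon-gamma activated site) stood in those of ITGAE and LAMB2, against 7.66%. ETS letters (CCGGAAGT, the site type of FLI1 and its relatives) stood in that of ITGB5 alone, against 4.14%. A member counts here when any of its promoters held the letters, while the background counts single promoters, so the counts and shares cannot be compared directly. A match is a description of the letters and not evidence that a factor binds there.

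Around the summits, the AP-1 motif was in 28.0% (95% Wilson interval 20.9 to 36.4%), 31.1% (23.9 to 39.4%), 32.2% (25.2 to 40.1%) and 29.8% (22.6 to 38.1%) of member peaks in the 4 libraries. Over all peaks near genes the shares were 14.9%, 16.2%, 17.2% and 16.2%. Member peaks lay farther than 1 kb from any TSS more often than all peaks did (56.0% against 48.6% in WT and 62.3% against 49.8% in FLI1-KO), and the motif was more common there. Within 1 kb of a TSS the members' shares were 18.2%, 20.8%, 23.6% and 25.5% against 7.56%, 8.23%, 8.28% and 7.9%. Beyond 1 kb they were 35.7%, 37.8%, 37.4% and 32.5% against 22.7%, 24.0%, 26.1% and 24.9%. Many of these peaks are the same regions seen in several libraries, so the 4 shares are not independent.

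**Figure D2:**
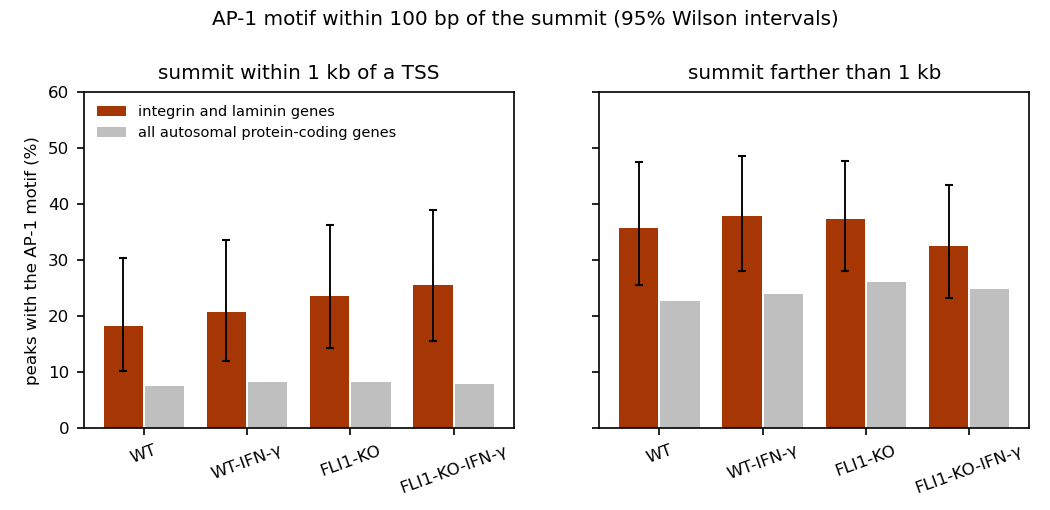
Share of peaks with the AP-1 motif within 100 bp of the summit (y axis, %) in each library (x axis), for peaks within 1 kb of a TSS on the left and farther on the right. Error bars are 95% Wilson intervals for the member peaks, whose shares stand above those of all genes in each library, with an interval that reaches the share of all genes for the farther peaks of FLI1-KO-IFN-γ.

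ETS and GAS letters were near the background. ETS letters were in 3, 4, 3 and 2 member peaks (2.4%, 2.96%, 2.05% and 1.53%, against 2.68%, 2.44%, 2.66% and 2.63% of all). GAS letters were in 4.8%, 7.41%, 6.16% and 6.87%, against 5.06%, 5.74%, 4.8% and 5.07%. The IRF motif was in 9.6% (5.58 to 16.0%), 7.41% (4.07 to 13.1%), 8.9% (5.28 to 14.6%) and 9.16% (5.32 to 15.3%) of member peaks, against 4.65%, 6.9%, 4.61% and 4.68% of all. The share of all peaks lay below the interval in each library but WT-IFN-γ. Split at 1 kb from a TSS, with fewer peaks in each part, the members' IRF share stayed above that of all peaks. However, the members' interval then excluded the share of all peaks only for the farther peaks of FLI1-KO (6.08 to 19.1% against 5.28%). In WT it was 3.95 to 19.6% against 4.0% within 1 kb, and 4.93 to 19.2% against 5.34% beyond. In all peaks near genes the IRF share was highest in WT-IFN-γ, and in the member peaks it was lowest there, with Wilson intervals that overlapped among the libraries.

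Most member regions were present in all conditions. Of the 175 regions, 99 (56.6%) were in all 4 lists, against 56.1% of all regions near genes. Introns held 108 of the regions, exons 13, sequence upstream of the gene 42 and sequence downstream 12. For 15 regions the nearest TSS belonged to a gene outside the family, as at ITGA7, where a peak of 143, 141, 124 and 110 tags lay 49 bp from the start of BLOC1S1.

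The members with the most regions were ITGB5, the beta chain of a vitronectin receptor, with 14, LAMA5, the alpha chain of most adult basement membranes, with 12, ITGB1, the common beta chain, with 10, ITGA3, a laminin receptor chain, with 8, and ITGB2, the common leukocyte beta chain, with 8. ITGB5 had 13, 11, 14 and 12 peaks, and LAMA5 had 11, 11, 11 and 8. ITGB1 had 7, 8, 11 and 8, ITGA3 had 7, 8, 8 and 7, and ITGB2 had 6, 8, 6 and 5. ITGB2 is a leukocyte gene by role, yet 5 of its regions were in all 4 lists, none of them at the canonical TSS. Among them, a peak of 70, 54, 52 and 45 tags lay 119 bp from the start of SLX9. Its tags cannot be told apart from those of the SLX9 promoter.

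**Figure D3:**
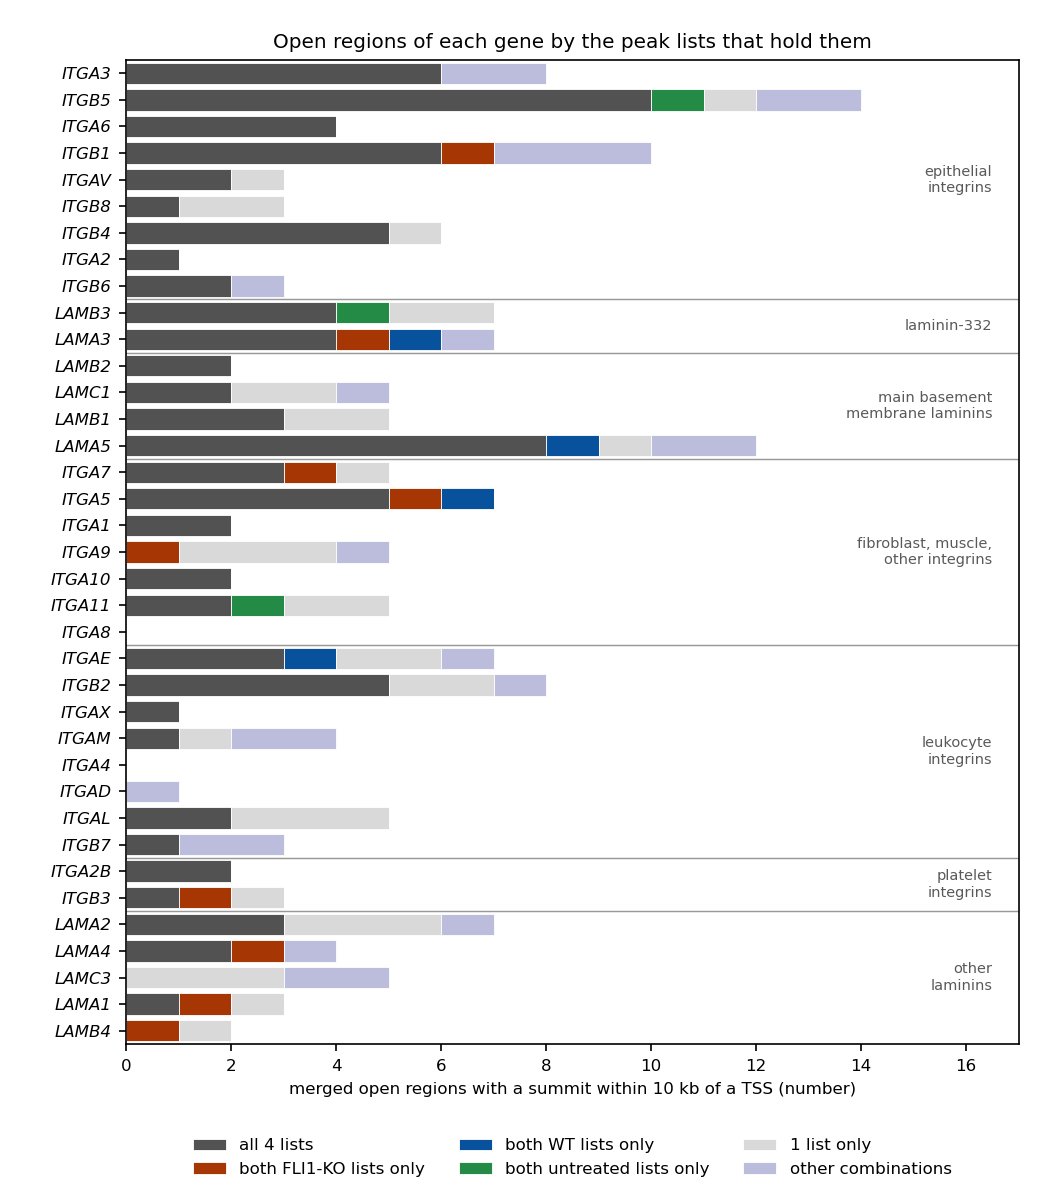
Number of merged open regions within 10 kb of a TSS (x axis) for each of 37 genes (y axis, grouped by role), coloured by which peak lists hold the region. ITGB5, LAMA5 and ITGB1 have the longest bars, ITGA4 and ITGA8 have none, and the regions held by both FLI1-KO lists only number 1 in each of 9 genes.

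With IFN-γ, few integrin and laminin peaks were past 1.5-fold in either genotype. In WT cells 21 of 135 treated peaks (15.6%) had no overlapping untreated peak, against 18.3% of all peaks near genes, and 12 of 125 untreated peaks (9.6%) had no treated one, against 11.3%. In FLI1-KO cells the counts were 12 of 131 (9.16%, against 12.4%) and 26 of 146 (17.8%, against 15.7%). No region was in both IFN-γ lists and neither untreated list, a class that held 1.45% of all regions near genes, and 3 (1.71%, against 1.04%) were in both untreated lists only.

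Peaks present in both lists were compared by their tags, with at least 60 tags over both. Of 83 such member peaks in WT, 3 were past 1.5-fold higher with IFN-γ (3.61%, against 3.48%) and 0 lower (against 1.69%). Of 84 in FLI1-KO, 2 were higher (2.38%, against 1.42%) and 0 lower (against 0.781%). The median log2 ratio of the members was −0.01 in each genotype, beside −0.01 and 0.0 over all genes. Divided by tag density in place of centring, 0 were higher and 1 lower in WT, and 0 higher and 2 lower in FLI1-KO.

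The 3 peaks higher with IFN-γ in WT were in different genes. An intron 24 peak of LAMB1, a beta chain of most basement membranes, had 62, 100, 69 and 50 tags, a log2 ratio of 0.61 (0.14 to 1.10) in WT. A peak 8032 bp upstream of ITGB6 had 50, 80, 68 and 69 tags and a ratio of 0.60 (0.08 to 1.14). Untreated FLI1-KO cells already exceeded untreated WT cells at that ITGB6 peak, with a log2 ratio of 0.61 (0.06 to 1.17). An intron 1 peak of ITGB2 had 31, 49, 28 and 34 tags and a ratio of 0.59 (−0.09 to 1.28), which counting error alone can span. In FLI1-KO the higher peaks were in intron 26 of ITGB4, with 45, 41, 27 and 40 tags and a ratio of 0.74 (0.00 to 1.5), and downstream of ITGB5, with 38, 45, 29 and 40 tags and a ratio of 0.64 (−0.09 to 1.38).

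By −log10 q, the strongest region gained with IFN-γ in WT lay 8334 bp upstream of ITGA3, with 87 tags in WT-IFN-γ, 45 in FLI1-KO and 57 in FLI1-KO-IFN-γ. No peak was listed in WT, where 31 tags would have been listed at the same local background. The untreated FLI1-KO library held it too, so it was gained as a listed peak in WT cells only. In FLI1-KO cells its tags were also higher with IFN-γ, by less than 1.5-fold. The next was in intron 3 of LAMB3, with 79 tags in WT-IFN-γ and no peak elsewhere, where 38 tags in WT and 34 in each FLI1-KO library would have been listed. By the same measure, the strongest region gained in FLI1-KO was in intron 9 of LAMA4, with 17 tags in FLI1-KO-IFN-γ, and it was listed in WT with 29 tags and in WT-IFN-γ with 20.

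By −log10 q, the strongest region lost with IFN-γ in WT was in intron 23 of LAMA3, with 20 tags in WT, 35 in FLI1-KO and 28 in FLI1-KO-IFN-γ, and with a limit of 10 tags in WT-IFN-γ. An intron 5 region of ITGB5 had more tags, 37 in WT, over a higher local background, and none listed in WT-IFN-γ, where the limit was 30. In FLI1-KO it lay downstream of ITGB7, inside ZNF740, with 19, 18 and 31 tags in WT, WT-IFN-γ and FLI1-KO and a limit of 11 in FLI1-KO-IFN-γ. The regions in both untreated lists only were all faint, at 40338 bp downstream of the LAMB3 start inside CAMK1G (23 tags in WT and 16 in FLI1-KO), in intron 10 of ITGB5 (16 and 15) and in intron 7 of ITGA11 (21 and 17).

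The largest ratios at shared member peaks were between the genotypes, as they were over all genes. Between genotypes the log2 ratios of all genes ran from −3.06 to 3.32 untreated and from −2.94 to 3.03 with IFN-γ. Between treatments they ran from −1.3 to 2.67 in WT and from −1.53 to 1.08 in FLI1-KO. In untreated cells 30 of 146 FLI1-KO member peaks (20.5%) had no WT counterpart, against 17.6% of all peaks near genes, and 11 of 125 WT peaks (8.8%) had no FLI1-KO one, against 15.1%. With IFN-γ, 22 of 131 FLI1-KO-IFN-γ peaks (16.8%) had no WT-IFN-γ counterpart, against 13.3%, and 27 of 135 were the reverse, against 20.9%. Merged over treatments, 9 member regions (5.14%) were in both FLI1-KO lists and neither WT list, against 2.7% of all regions near genes, and 4 (2.29%) were in both WT lists only, against 3.27%.

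Among shared peaks, 8 of 86 were past 1.5-fold higher in FLI1-KO than in WT (9.3%, against 5.46%) and 2 lower (2.33%, against 6.23%). With IFN-γ, 6 of 80 were higher (7.5%, against 5.02%) and 5 lower (6.25%, against 5.95%). The members' median log2 ratio was 0.04 in each comparison, beside −0.02 and 0.00 over all genes. The untreated and treated genotype comparisons share no library. Over the 77 member regions measured in both, the log2 ratios had a Pearson correlation of 0.657 and a Spearman correlation of 0.44, beside 0.546 and 0.442 over 15772 regions of all genes. The member Pearson value includes 1 ITGB3 region apart from the rest, at 2.35 and 2.3, and its part in that value was not tested. These are descriptions across regions, which share chromosomes and libraries. Of those 77, 3 were past 1.5-fold higher in both comparisons and 0 lower in both.

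**Figure D4:**
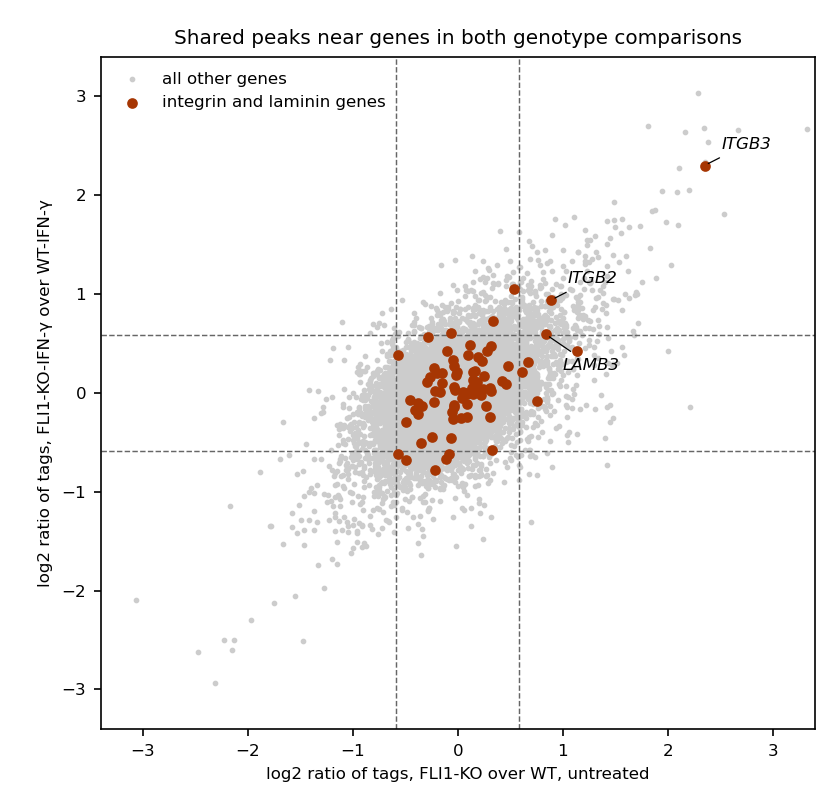
Centred log2 ratio of tags, FLI1-KO over WT in untreated cells (x axis) and with IFN-γ (y axis), for shared peaks within 10 kb of a TSS. Dark points are the 77 member regions, grey points those of the other genes, and dashed lines mark 1.5-fold. ITGB3 lies at 2.35 and 2.3, apart from the other member regions, and ITGB2 and LAMB3 are past the upper lines on both axes.

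The largest of these differences was in intron 1 of ITGB3, the beta chain of the platelet and vitronectin receptors, 4156 bp downstream of the canonical TSS and also inside the overlapping gene ENSG00000259753. It had 11 tags (95% Poisson interval 5.49 to 19.7) in the untreated and 15 (8.4 to 24.7) in the treated WT library, and 50 (37.1 to 65.9) and 55 (41.4 to 71.6) in the FLI1-KO libraries. Both FLI1-KO libraries stood above both WT libraries, and the counting intervals of the genotypes did not meet. FLI1-KO was 5.11-fold higher untreated (log2 ratio 2.35, 1.39 to 3.44) and 4.91-fold higher with IFN-γ (2.3, 1.45 to 3.23), while the median on chromosome 17 was −0.04 and 0.02. A further region 1422 bp upstream of the ITGB3 start was in both FLI1-KO lists only, with 19 and 13 tags and a limit of 8 in WT and 9 in WT-IFN-γ. ITGB3 thus had its open regions mainly in the FLI1-KO libraries, and no peak within 1 kb of its start in any of them. Its partner chain ITGA2B had 65, 69, 62 and 67 tags at an internal start site, without a difference of that kind.

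The other shared peaks higher in both comparisons were upstream of ITGB2 and LAMB3. The ITGB2 peak, 7322 bp upstream of the canonical TSS and 497 bp from an alternative start, had 48, 46, 79 and 66 tags, with log2 ratios of 0.89 (0.35 to 1.44) and 0.94 (0.38 to 1.52). The LAMB3 peak, 4899 bp upstream, had 61, 71, 97 and 80 tags, with ratios of 0.84 (0.36 to 1.32) and 0.59 (0.11 to 1.07). Centred on chromosome 1 the second LAMB3 ratio was 0.51, within 1.5-fold. Divided by tags per kb, this LAMB3 peak was at 8.03 in WT-IFN-γ and 11.7 in FLI1-KO-IFN-γ, also within 1.5-fold. Downstream of ITGB2 another peak had 28, 29, 36 and 45 tags and was past 1.5-fold with IFN-γ alone, at 1.05 (0.35 to 1.78). A peak 9283 bp upstream of LAMA5, with 50, 47, 56 and 58 tags, had a ratio of 0.72 (0.14 to 1.31) with IFN-γ, and one in intron 27 of ITGB4, with 40, 30, 34 and 34, had 0.60 (−0.15 to 1.36).

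In untreated cells, the further higher peaks were in intron 8 and intron 5 of ITGB5, in intron 7 of ITGA11, a collagen receptor chain of fibroblasts, and upstream of ITGA7. The intron 8 peak of ITGB5 had 40, 58, 60 and 41 tags, with a ratio of 0.75 (0.15 to 1.37) untreated and no difference of that size with IFN-γ. The ITGA11 peak had 21, 33, 41 and 33 tags and a ratio of 1.13 (0.34 to 1.97). The ITGA7 peak, with 58, 68, 82 and 63 tags and a ratio of 0.67 (0.17 to 1.18), lay 20 bp from the start of RDH5, a retinol dehydrogenase gene, and cannot be told apart from its promoter.

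No member peak was past 1.5-fold lower in FLI1-KO in both comparisons. Untreated, they were the LAMA3 start given above and a peak in intron 24 of ITGA9, with 39, 31 and 23 tags and none listed in FLI1-KO-IFN-γ, at −0.59 (−1.40 to 0.19). With IFN-γ, an intron 4 peak of ITGB5 had 60, 76, 46 and 33 tags and a ratio of −0.78 (−1.42 to −0.18). An intron 1 peak of LAMC1, the gamma chain of most laminins, had 70, 72, 42 and 35 tags and a ratio of −0.62 (−1.25 to −0.02), beside −0.57 (−1.16 to 0.00) in untreated cells, just within 1.5-fold. An intron 20 peak of ITGAE had 63, 66, 52 and 31 tags and a ratio of −0.67 (−1.33 to −0.03). Fainter peaks in intron 11 of LAMB3 (38, 41, 32 and 20 tags) and upstream of ITGB5 (41, 43, 26 and 20) were also lower, with intervals that reached 0. At each of these 5 peaks the FLI1-KO-IFN-γ library was the lowest of the 4 before scaling. These peaks were selected for being lower there than in WT-IFN-γ, and that library had the lowest tag density (6.86 tags per kb). Its rank is therefore no separate result.

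The 9 regions in both FLI1-KO lists only lay in 9 genes with different roles. The strongest was in intron 4 of ITGA7, the laminin receptor chain of muscle, with 43 tags in FLI1-KO (31.1 to 57.9) and 34 in FLI1-KO-IFN-γ (23.5 to 47.5). A peak there would have been listed from 17 tags in WT and 18 in WT-IFN-γ, so the FLI1-KO intervals lay above both limits. In intron 2 of LAMA4, a laminin chain of vessel walls, the tags were 38 (26.9 to 52.2) and 27 (17.8 to 39.3), with limits of 20 and 21 in the WT libraries. Here the interval of the untreated library lay above the WT limit and that of the treated one reached it.

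The other 7 were fainter. Intron 20 of LAMA3 had 20 and 18 tags with limits of 8 and 9, a region 13483 bp upstream of ITGB1 had 21 and 17 with limits of 10 and 10, and intron 25 of ITGA9 had 19 and 19 with limits of 10 and 11. Intron 53 of LAMA1 had 13 and 18 tags with limits of 8 and 9, beside the upstream ITGB3 region given above. At ITGA5, the chain of the fibronectin receptor, a region 9629 bp upstream had 32 and 27 tags with limits of 27 and 29, and in intron 25 of LAMB4 the tags were 10 and 8 with limits of 8 and 8. For ITGA5 and LAMB4 the treated library did not exceed the limit, so a difference was not detectable at this depth. The counting intervals of the treated library at ITGB1 (9.9 to 27.2) and ITGB3 (6.92 to 22.2) also reached the limit. So did that of the untreated library at LAMA1 (6.92 to 22.2). At LAMA3 and ITGA9 the intervals of both FLI1-KO libraries lay above the limits.

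The 4 regions in both WT lists only were an exon 78 region of LAMA5 with 33 tags in WT and 39 in WT-IFN-γ, an intron 12 region of ITGAE with 31 and 27, an intron 60 region of LAMA3 with 21 and 21, and an intron 2 region of ITGA5 with 12 and 29. The lowest pileup that would have been listed was 23 tags at LAMA5, 12 at ITGAE, 7 at LAMA3 and 10 at ITGA5 in each FLI1-KO library. In WT the counting intervals at LAMA5 (22.7 to 46.3) and ITGA5 (6.2 to 21.0) reached these limits. ITGA5 and LAMA3 each held 1 region of both kinds, so LAMA3 did not move in 1 direction as a whole. For ITGA5 the region of the FLI1-KO lists did not exceed its limit in the treated library, so no direction can be given for that gene.

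**Figure D5:**
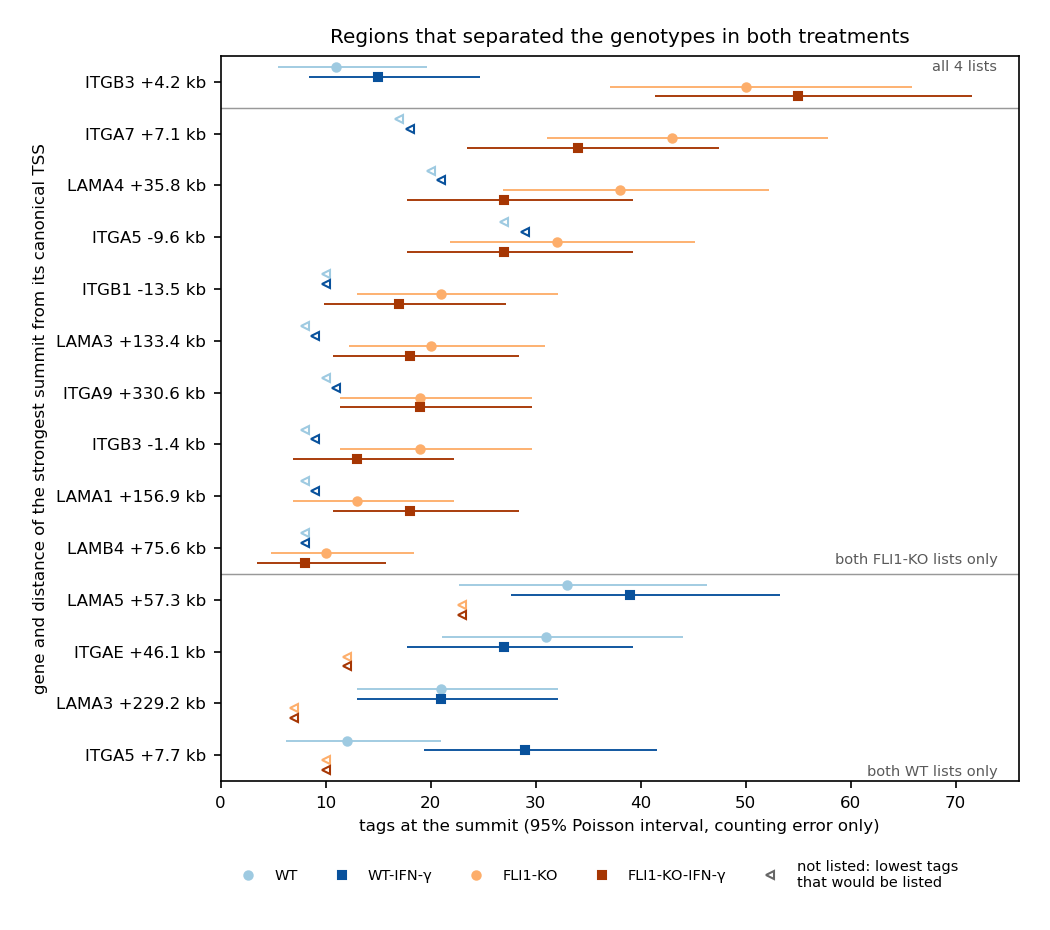
Tags at the summit (x axis) of the ITGB3 intron 1 peak and of the 13 regions listed in both libraries of 1 genotype only (y axis), with 95% Poisson intervals; open triangles give the lowest tags that would be listed in a library without the peak. The FLI1-KO points of ITGB3 and ITGA7 stand farthest from the WT points or limits.

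The windows of 5 of the regions with genotype differences above are printed. Each is the 201 bp around the strongest summit on the plus strand of GRCh38 (hg38), at chr17:47257883-47258083 for ITGB3 intron 1, chr12:55700749-55700949 for ITGA7 intron 4, chr6:112218636-112218836 for LAMA4 intron 2, chr18:23822758-23822958 for LAMA3 intron 20, all open or stronger in FLI1-KO, and chr12:54411463-54411663 for ITGA5 intron 2, listed in WT only. Capitals mark TGANTCA, the AP-1 letters, and no ETS, GAS or IRF match stood in these windows. Among the 4 regions in both WT lists only, ITGA5 alone held the AP-1 letters, and its counting interval in WT reached the limit. The ITGAE and LAMA3 regions of both WT lists only had intervals above the limits, held no AP-1 letters and are not printed. The same holds for the ITGA9 region of both FLI1-KO lists only. The printed windows therefore lean towards regions with AP-1 letters.
ITGB3: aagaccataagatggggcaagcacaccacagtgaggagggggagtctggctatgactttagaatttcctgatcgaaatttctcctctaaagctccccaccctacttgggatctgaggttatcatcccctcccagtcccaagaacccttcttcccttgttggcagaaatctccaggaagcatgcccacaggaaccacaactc
ITGA7: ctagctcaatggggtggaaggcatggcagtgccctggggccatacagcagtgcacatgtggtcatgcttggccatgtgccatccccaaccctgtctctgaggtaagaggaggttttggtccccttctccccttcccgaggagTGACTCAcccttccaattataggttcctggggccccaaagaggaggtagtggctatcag
LAMA4: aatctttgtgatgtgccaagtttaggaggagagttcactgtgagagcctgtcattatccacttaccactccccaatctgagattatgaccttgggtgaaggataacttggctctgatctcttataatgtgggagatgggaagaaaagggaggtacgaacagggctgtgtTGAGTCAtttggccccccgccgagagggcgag
LAMA3: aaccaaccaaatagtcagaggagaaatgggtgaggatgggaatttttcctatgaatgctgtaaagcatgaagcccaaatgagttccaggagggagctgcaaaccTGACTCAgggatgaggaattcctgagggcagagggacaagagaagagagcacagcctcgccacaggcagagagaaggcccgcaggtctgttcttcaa
ITGA5: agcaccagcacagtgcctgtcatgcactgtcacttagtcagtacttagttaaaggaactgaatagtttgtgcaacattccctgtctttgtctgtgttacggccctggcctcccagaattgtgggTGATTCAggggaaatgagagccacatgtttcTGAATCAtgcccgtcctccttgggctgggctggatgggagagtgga

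The AP-1 letters were in 4 of the 9 regions listed in both FLI1-KO lists only (ITGA7, LAMA1, LAMA3 and LAMA4) and in 1 of the 4 in both WT lists only (ITGA5, at 2 places). Counting a region when the 100 bp on either side of any library's summit held the letters, they were in 36 of the 99 member regions in all 4 lists and in 60 of all 175. ETS letters were in 0 of the 9 and 0 of the 4, and in 4 of all 175 member regions, all of which were in all 4 lists. The ITGB3 intron 1 region, with the largest difference, counts among the AP-1 regions through the window of another library's summit, while the window printed above held none of the 4 motifs.

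Genes that act with integrins and laminins were listed by name, 33 in all, among them adaptors of focal adhesions and other basement membrane proteins. A start-site peak was present for 27 of them in WT, 28 in WT-IFN-γ, 27 in FLI1-KO and 27 in FLI1-KO-IFN-γ. COL17A1, a hemidesmosome collagen, FERMT3, the kindlin of blood cells, NID1 and NID2, the nidogens that link laminin to collagen IV, and TNS4 had none in any list. In untreated cells 39 of 169 FLI1-KO peaks of these genes (23.1%, against 17.6% of all peaks near genes) had no WT counterpart and 17 of 144 WT peaks (11.8%, against 15.1%) had no FLI1-KO one. With IFN-γ the order was the other way, at 22 of 142 (15.5%, against 13.3%) and 36 of 155 (23.2%, against 20.9%). Of 89 shared peaks 9 were past 1.5-fold higher in FLI1-KO (10.1%, against 5.46%) and 3 lower (3.37%, against 6.23%), and with IFN-γ 5 of 91 were higher and 5 lower (5.49% each, against 5.02% and 5.95%). Between treatments in WT, 6 of 94 shared peaks were higher with IFN-γ (6.38%, against 3.48%) and 1 lower (1.06%, against 1.69%), and in FLI1-KO 1 of 89 was higher and 1 lower (1.12% each, against 1.42% and 0.781%).

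The 10 kb limit decided a few faint entries. Just inside it were a LAMA2 peak of 8 tags at 9984 bp in FLI1-KO and an ITGB1 peak of 39 tags at 9981 bp in WT-IFN-γ. Just outside it were an ITGB1 peak of 48 tags at 10084 bp in WT and a LAMC3 peak of 24 tags at 10360 bp in FLI1-KO-IFN-γ.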

How the data were processed

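ATAC-seq was performed on 4 HK1 libraries, 1 per group, and the authors deposited 1 narrowPeak list per library. As the methods state, reads were trimmed with Trimmomatic 0.3 and aligned to GRCh38 with Bowtie2 2.3.4.1, low-quality alignments and duplicates were removed, and peaks were called with MACS2 2.1.2. An IDR filter is also described, and whether it was applied to these lists was not tested. The deposited columns hold an integer score, the fold enrichment (a ratio over local background), and the −log10 p-value and −log10 q-value of each summit.

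Summit pileups (tags) were recovered from the fold and the Poisson −log10 p-value for all peaks but 1. In simulated data all 17334 pileups, 200 removed peaks and 150 added peaks were recovered. Total read depth is unknown, and background tags per kb stand in for it. Gene models were from GENCODE release 44. Peaks overlapping by at least 1 bp were matched, ratios were centred on the median over all matched peaks, and 1.5-fold with at least 60 tags over both libraries was called. Intervals are 95% exact Poisson, exact conditional binomial or Wilson, and cover counting error only. The listing limit of a library is the lowest pileup that would have been called there, at the local background of the strongest list scaled by tags per kb. No test between groups was made, as each group held 1 library. The values of 1 member are not reported here, though it counts in the totals. The genes named are LAMA3, LAMB3 and the α6β4 genes, those with regions restricted to 1 genotype or treatment, the 3 most significant shared peaks per direction and comparison, the 5 members with the most regions, those with none, and the strongest regions gained or lost with IFN-γ. The LAMB3 intron 3 region, the ITGB6, ITGAE and ITGAX peaks near start sites and the remaining shared peaks past 1.5-fold were named after their values were seen. The members and lists were chosen with earlier results of these data known. Alternatives were another window, the canonical TSS, a stricter q, a larger overlap, peaks strong enough for the other library's tag density, other centring and a lower tag minimum. The scripts ran under Python 3.11.15 (scipy 1.17.1, numpy 2.4.6, matplotlib 3.10.9, pandas 2.3.3).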

Additional observations from a re-analysis of the deposited data

Results flagged for a closer look

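The number of integrin and laminin peaks moved in opposite directions with IFN-γ in the genotypes. It rose by 10 in WT, from 125 to 135, and changed by -15 in FLI1-KO, from 146 to 131. Each count comes from 1 library, and the difference between the genotypes was not tested. The lists as a whole moved the same ways, from 27549 to 30107 peaks near genes in WT and from 28646 to 27535 in FLI1-KO, and the part of list length in the members' counts was not tested.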

How the results depend on the processing

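No replicate could be left out because each group held 1 library, and no replicate block was fitted because the labels number no replicates. Of 80 recomputed counts over 24 results, 46 stayed within 1.5 times the reported count and 34 did not. A window of 3 kb gave 71, 71, 78 and 66 member peaks in WT, WT-IFN-γ, FLI1-KO and FLI1-KO-IFN-γ, and the canonical TSS alone 51, 56, 61 and 59, since both admit fewer positions. With 3 kb, peaks without a counterpart fell to 8 gained in WT, 4 gained and 16 lost in FLI1-KO, 14 in FLI1-KO and 7 in WT untreated, and 12 in FLI1-KO-IFN-γ. With −log10 q of at least 5 they were 4 lost in WT, 1 gained and 10 lost in FLI1-KO, 14 in FLI1-KO and 5 in WT untreated, and 11 in FLI1-KO-IFN-γ. Division by tag density left 0 shared peaks higher and 1 lower with IFN-γ in WT, 0 higher and 2 lower in FLI1-KO, and 1 lower in FLI1-KO than in WT. The direction of the few calls with IFN-γ therefore depends on the scaling. By tag density, 4 shared peaks were higher in FLI1-KO-IFN-γ than in WT-IFN-γ, where 6 were reported. Centring by chromosome gave 1 shared peak lower with IFN-γ in FLI1-KO, where 0 was reported. A minimum of 30 tags gave 7 higher and 5 lower with IFN-γ in WT, 6 and 1 in FLI1-KO, 16 and 5 in FLI1-KO against WT untreated, and 11 and 8 with IFN-γ. A larger overlap, any overlap with the window, or keeping only peaks strong enough for the other library's tag density moved no count by more than 1.5 times. The ITGB3 intron 1 ratio was 2.40 and 2.24 by tag density and 2.39 and 2.27 centred by chromosome. Pileups of about 10 tags carry wide counting intervals, and regions near the listing limit cannot be called absent.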
